A study of Mus musculus with 18 samples.

Results

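The transcriptome difference described here is the one between total RNA of mice homozygous and heterozygous for the Nup93 R388W allele. Its members are 6 of the 18 sequenced libraries: 3 labelled Total_heto, of genotype Nup93 R388W/+ (Het), and 3 labelled Total_homo, of genotype Nup93 R388W/R388W (Hom). All genes in the table were compared between the groups. The mice are knock-in animals of strain 129S1/SvlmJ, and both groups carry the R388W allele. The study also holds total and nuclear RNA of wild-type (WT) mice and nuclear RNA of Het and Hom mice, 3 libraries each. Neither treatment, age, sex nor the animal behind a library is labelled, and p-values therefore measure the spread between libraries, which may be technical.

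Nup93 encodes a scaffold nucleoporin of the inner ring of the nuclear pore complex, the channel through which mRNA leaves the nucleus and proteins enter it, and NUP93 variants cause steroid-resistant nephrotic syndrome in humans. Podocytes are the epithelial cells that form the filtration slit of the glomerulus, whereas the proximal tubule, the most abundant epithelium of the kidney cortex, reabsorbs most of the filtrate. In mice many proximal tubule transcripts depend on androgen, and Kap, the kidney androgen-regulated protein, is the classic example.

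The series text describes podocytes isolated from the mice, while the tissue label reads only mouse tissue. Podocyte genes were low against tubule genes. Per kilobase of gene length, the slit diaphragm gene Nphs1 stood at 1.08 ± 0.0434 CPM (counts scaled by library total and TMM factor) in Het, whereas Lrp2, which encodes the proximal tubule endocytic receptor megalin, stood at 222 ± 0.193 and Kap at 36693 ± 726 (SD, n = 3). The profile was therefore read as kidney tissue rich in tubule RNA and not as pure podocytes. In such bulk RNA, fewer cells of a type and less RNA per cell cannot be told apart.

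Depth was 17405493 to 20845254 counts per library, with 17501 to 17929 genes detected. The ribosomal precursor Rn45s took 0.110% to 0.269% of the counts in 5 libraries and 7.12% in Total_Hom replicate 2. The small RNAs Rmrp and Rpph1, chosen after their values were seen, stood at 62.7 and 131 CPM in that library, against highest values of 1.55 and 4.58 CPM in the other 5. Neither these 2 nor Rn45s passed the test, and the log2 Hom over Het of Rpph1 turned from 3.61 to -0.35 without that library. Without Total_Hom replicate 2, 9675 genes were called against 10016 with it, and 9394 of the 10016 (93.8%) were called in the same direction.

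The targeted gene itself was expressed in every library. Nup93 stood at 18.3, 18.5 and 19.1 CPM in the 3 Het libraries and at 20.99, 21.04 and 19.97 CPM in the 3 Hom libraries. The Hom values lay above all Het values, but 69.7% of all tested genes likewise had no overlap between the groups. The difference in Nup93 (log2 0.15 ± 0.07) gave an adjusted p of 0.0566 in edgeR's quasi-likelihood test, above the threshold of 0.05. It passed without Total_Hom replicate 3 (log2 0.17). A point substitution need not alter the level of its transcript, so this level does not check the genotype labels. Adjusted p here and below is after Benjamini-Hochberg correction over all genes tested, and log2 values are Hom over Het with their SE.

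Of 24602 genes listed, 14730 had enough counts to be tested, and 10016 of them (68.0%) were called. In Hom 4961 genes (33.7%) were higher and 5055 (34.3%) lower. Most differences were small: 747 genes were higher and 549 lower by at least 2-fold, and 84 and 118 by at least 4-fold. The median log2 Hom over Het over all genes was 0.01 and the median size of a difference was 0.29. With library totals as the only scaling, 6708 genes were called higher and 3065 lower, and the median of all genes moved to 0.16. A called share of 68.0% is the background against which the counts of each group are given below, and small directions are relative to that median.

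The largest rises named were those of Ugt1a2 and Cyp4a14. Ugt1a2, a UDP-glucuronosyltransferase, stood at 0.829, 1.01 and 1.33 CPM in Het and at 424, 419 and 412 CPM in Hom (log2 8.63 ± 0.05). Genes of the Ugt1a cluster share their last exons, so the counting could divide reads between them. Cyp4a14, a fatty acid omega-hydroxylase, stood at 3.54, 2.87 and 4.05 CPM in Het and at 274, 261 and 266 in Hom (log2 6.26 ± 0.05). In both genes all Hom libraries lay far above all Het libraries, and lack of overlap was a condition for naming them.

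Apoe, the apolipoprotein E gene, stood at 314, 294 and 293 CPM in Het and 1485, 1641 and 1633 in Hom (log2 2.40 ± 0.06). Lcn2, which encodes the injury-associated lipocalin NGAL, stood at 10.9, 8.60 and 8.82 against 78.04, 74.7 and 76.1 CPM (log2 3.01 ± 0.06). Gc, the vitamin D-binding protein gene, rose from 13.9, 14.4 and 12.1 to 87.4, 83.4 and 86.8 CPM (log2 2.67 ± 0.05). Apolipoprotein D (Apod) rose by 3.14 ± 0.11 (log2), the retinaldehyde dehydrogenase gene Aldh1a3 by 2.62 ± 0.07 (log2), the kynureninase gene Kynu by 2.47 ± 0.08 (log2) and the mesothelin gene Msln by 2.40 ± 0.09 (log2). Kcnip2, which encodes a potassium channel-interacting protein, rose by 2.91 ± 0.14 (log2) and Lrtm2, a leucine-rich repeat membrane protein gene, by 2.39 ± 0.13 (log2).

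Among the largest falls were Acsm3, Slco1a1 and Kap. Acsm3, a mitochondrial medium-chain acyl-CoA synthetase gene, stood at 676, 678 and 684 CPM in Het and 4.02, 3.70 and 3.36 CPM in Hom (log2 -7.52 ± 0.04). Slco1a1, an organic anion transporter of the brush border, stood at 684, 714 and 702 against 45.4, 44.5 and 48.8 CPM (log2 -3.92 ± 0.03). Kap stood at 21826, 22411 and 22691 CPM in Het and 1846, 1732 and 1782 in Hom (log2 -3.64 ± 0.03), and had the highest counts of the genes that fell by at least 1.5-fold. The replicates of each group lay close together in all 3 genes and the groups were far apart, as the choice of genes required no overlap.

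Another 8 genes were named for their falls. Cyp4a12a, the androgen-inducible hydroxylase that forms 20-HETE, stood at 704, 712 and 726 against 35.4, 31.5 and 30.5 CPM (log2 -4.46 ± 0.04). The methyltransferase gene Inmt stood at 594, 583 and 578 against 30.5, 32.4 and 31.9 CPM (log2 -4.21 ± 0.03). Dpys, which encodes dihydropyrimidinase (log2 -5.63 ± 0.12), and Akr1c18, which encodes a hydroxysteroid dehydrogenase that inactivates progesterone (log2 -4.01 ± 0.14), fell as well. The bile acid and steroid transporter gene Slc51a (log2 -4.03 ± 0.06) and Angptl7 (log2 -3.10 ± 0.04) fell too. So did the organic anion transporter genes Slc22a30 (log2 -3.13 ± 0.04) and Slc22a28 (log2 -3.08 ± 0.04). Over the 22 genes named here as largest rises and falls, 11 each, the largest adjusted p was 4.20e-06, for Apoe, and 1 predicted gene model of the same size of fall was counted and not named.

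**Figure D1:**
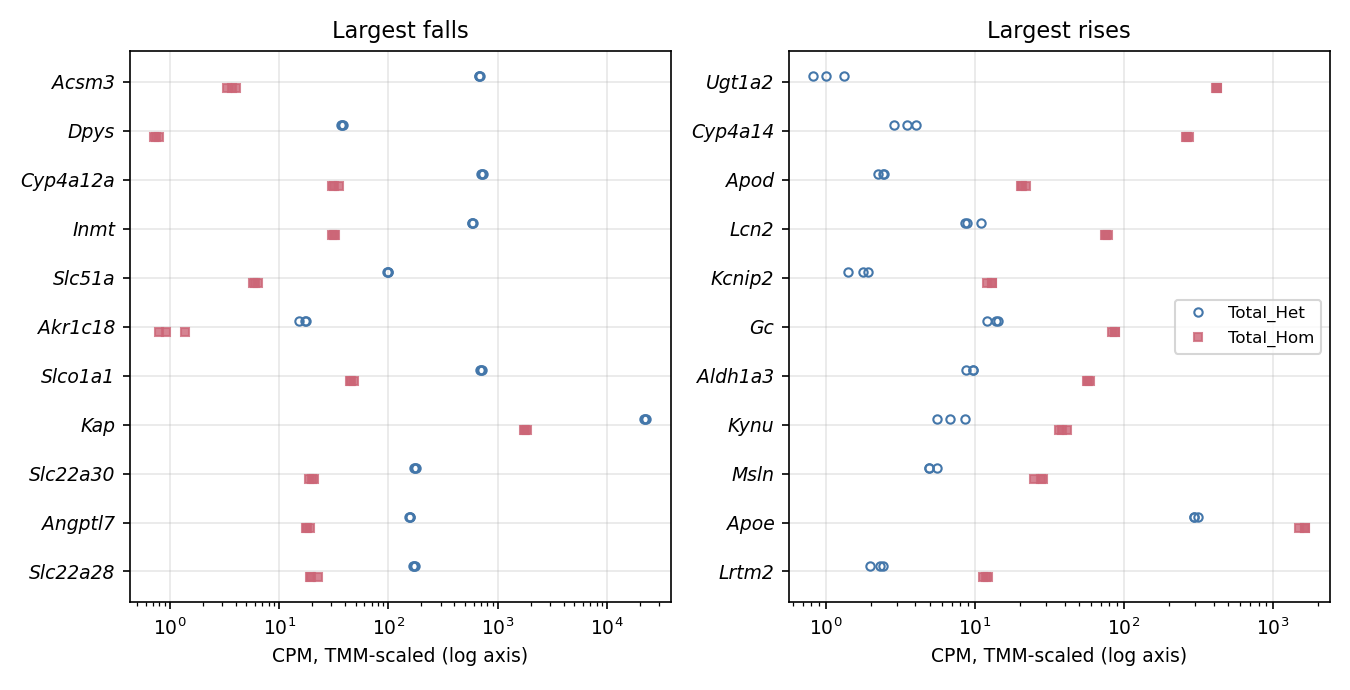
Level of the 11 genes named as largest falls (left) and the 11 named as largest rises (right) in total RNA, in CPM scaled by TMM factors on a log axis; open circles are the 3 Total_Het libraries and squares the 3 Total_Hom libraries. No overlap between the groups was a condition for naming these genes, so the gap seen in each gene is not a separate result. Of all tested genes, 10270 (69.7%) had no overlap. Replicates differ little against the difference between groups.

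Genes raised by androgen in mouse kidney were chosen as a list of 22, of which all were tested. In Hom 20 were lower and 2 higher, with a median log2 of -1.85. Besides Acsm3, Slco1a1 and Kap, the metalloprotease gene Mep1a fell by 2.24 ± 0.01 (log2). Cyp7b1, an oxysterol hydroxylase gene, and Odc1, the gene of ornithine decarboxylase, were chosen after their values were seen and fell by 2.52 ± 0.03 (log2) and 2.48 ± 0.02 (log2). Summed, the 22 genes took 4.16% to 4.27% of all counts in the Het libraries and 0.777% to 0.870% in the Hom libraries. In 2 WT total libraries, which differ from both groups in Xist, the sum was 1.01% to 1.04%.

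Of the 17 tested genes of a list lowered by androgen, 12 were higher and 4 lower in Hom, with a median of 1.495. Ugt1a2, Cyp4a14 and the related hydroxylase gene Cyp4a10 (log2 2.18 ± 0.02) rose. The steroid 15-alpha-hydroxylase gene Cyp2a4, placed on this list, fell (log2 -1.53 ± 0.02). How androgen acts on the members of either list was not tested here, neither for those that rose nor for those that fell. Log2 values ranged from -2.13 to 8.63 on this list and from -7.52 to 1.13 on the androgen-raised list.

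Xist, which is transcribed from the inactive X chromosome, was near absent in both groups, at 0.331, 0.337 and 1.15 CPM in Het and 1.04, 1.63 and 0.989 CPM in Hom. The Y-linked gene Ddx3y stood at 55.6, 59.7 and 56.6 against 66.6, 61.4 and 65.3 CPM (log2 0.17 ± 0.04). Eif2s3y was also slightly higher in Hom (log2 0.13 ± 0.04), while Kdm5d (log2 -0.30 ± 0.09) and Uty (log2 -0.24 ± 0.07) were slightly lower. Both groups thus held Y-linked transcripts and little Xist. WT total libraries 2 and 3 held Xist at 343 and 325 CPM and Ddx3y at 0.456 and 0.237 CPM, so their levels, scaled together with the nuclear libraries, are given with no test. In these 2 libraries Kap stood at 5319.6 and 5168 CPM, Acsm3 at 3.44 and 3.13, Slco1a1 at 1.06 and 1.18, Ugt1a2 at 476 and 471 and Cyp4a14 at 416 and 398. Kap in WT lay between Het and Hom, and Acsm3 in WT lay near the Hom levels. Ugt1a2 and Cyp4a14 in WT lay above both groups, nearer to Hom than to Het. Slco1a1 in WT lay below both groups.

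Promoter sequence is shown for 2 of these genes, 1 that fell and 1 that rose, because each holds a clock-related motif found by search. The 250 bases before the first base of the transcript are from RefSeq (GRCm38.p6), in lower case with the motif in capitals: for Acsm3 at chr7:119760673-119760922 (plus strand) the D-box TTATGTAA, bound by DBP, TEF and HLF, 63 bases before the start, and for the first start of Per1 at chr11:69098699-69098948 (plus strand) the E-box CACGTG, bound by CLOCK and BMAL1, 166 bases before it.
Acsm3: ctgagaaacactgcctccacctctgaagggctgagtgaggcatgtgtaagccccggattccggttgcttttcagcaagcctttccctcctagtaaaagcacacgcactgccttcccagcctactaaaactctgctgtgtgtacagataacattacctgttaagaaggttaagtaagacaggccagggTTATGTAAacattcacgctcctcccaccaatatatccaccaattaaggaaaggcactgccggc
Per1: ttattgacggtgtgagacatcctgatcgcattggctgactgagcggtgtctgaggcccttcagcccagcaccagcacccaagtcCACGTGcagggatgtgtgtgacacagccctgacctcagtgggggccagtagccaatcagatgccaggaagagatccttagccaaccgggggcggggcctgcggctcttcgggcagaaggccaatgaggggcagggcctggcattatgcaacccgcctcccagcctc
Both strands were searched for TTATGTAA, CACGTG and the androgen response half-site AGAACA. Of 32851 RefSeq promoter windows of that length, 0.819% held the D-box, 6.02% the E-box and 16.1% the half-site. Counted by gene, over 27025 genes with a promoter, the shares were 0.977%, 6.86% and 18.2%. Promoters were given for 9 of the 11 named falls and 7 of the 11 named rises. The D-box was found in Acsm3 and Akr1c18, the E-box in Slc51a and the half-site in Apoe. The windows of Kap, Slco1a1 and Ugt1a2, and that of the other start of Per1, held none of these letters. A match is a description of letters only.

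Circadian clock genes moved in both directions. Of 21 tested, 16 were higher and 5 lower in Hom, with a median of 0.42. The repressor gene Per1 stood at 26.1, 24.5 and 23.8 CPM in Het and 105, 101 and 103 CPM in Hom (log2 2.05 ± 0.04). The repressor genes Per2 (log2 1.16 ± 0.07) and Cry2 (log2 1.07 ± 0.06) and the clock output gene Dbp (log2 1.31 ± 0.07) rose as well. Of genes chosen after their values were seen, the repressors Ciart (log2 1.75 ± 0.20) and Cry1 (log2 1.09 ± 0.11) rose, whereas the activators Npas2 (log2 -1.06 ± 0.08), Arntl (log2 -0.42 ± 0.07) and Clock (log2 -0.37 ± 0.04) fell. The E-box was found in 5 of 17 clock genes with a promoter: Bhlhe41, Ciart, Cry1, Per1 and Tef. The D-box was found in Per3 and the half-site in Tef. The shares over all genes with a promoter are those given above, 6.86% for the E-box. The hour at which tissue was taken is not labelled, and its part in the result was not tested.

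Proximal tubule markers were lower in Hom. Of 20 tested, 16 were lower and 3 higher, with a median of -0.70. Acsm2, a medium-chain acyl-CoA synthetase gene, stood at 6845, 6892 and 6859 CPM in Het and 1549.6, 1492 and 1526 CPM in Hom (log2 -2.17 ± 0.01). Gatm, the first enzyme of creatine synthesis, fell by 1.80 ± 0.02 (log2), the organic anion transporter gene Slc22a6 by 1.65 ± 0.02 (log2) and the cytochrome gene Cyp4b1 by 1.84 ± 0.01 (log2). The phosphate transporter gene Slc34a1 (log2 -0.78 ± 0.01) and Lrp2 (log2 -0.54 ± 0.01, chosen after its values were seen) fell less. The lactate transporter gene Slc5a12 was higher (log2 0.98 ± 0.02). The 20 markers summed to 5.36% to 5.45% of counts in Het and 2.15% to 2.37% in Hom. Kap, Acsm2 and Cyp4b1 are also on the androgen-raised list, so the lists are not separate results. On the CPM scale the sum was 2.63-fold lower in Hom, 1.74-fold lower without Kap and 1.40-fold lower without all 3. Of the 17 other markers 13 were lower and 3 higher, with a median of -0.54.

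Transporter genes moved both ways. Of 32 organic ion and drug transporters tested, of which 2 are also proximal tubule markers and 3 are on the androgen-raised list, 19 were lower and 9 higher, with Slc22a2 (log2 -2.96 ± 0.03) and the urate transporter gene Slc22a12 (log2 -1.73 ± 0.02) among the falls. Of 31 amino acid, glucose and phosphate transporters, 5 of them also proximal tubule markers, 19 were lower and 10 higher. Slc7a13, a cystine and aspartate transporter gene of the late proximal tubule, fell by 1.87 ± 0.02 (log2) and the monocarboxylate transporter gene Slc5a8 by 1.75 ± 0.03 (log2). Among 19 renin-angiotensin and blood pressure genes, 8 were lower and 9 higher. The angiotensin-converting enzyme gene Ace stood at 432, 439 and 438 against 140.3, 141 and 135 CPM (log2 -1.65 ± 0.02). The peptidase gene Enpep (log2 -1.27 ± 0.02) fell, and so did Mas1 (log2 -2.25 ± 0.24), chosen after its values were seen. Sgk1, the aldosterone- and glucocorticoid-induced kinase gene, rose (log2 1.24 ± 0.03).

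Collecting duct and urothelial markers were higher in Hom. Of 19 collecting duct markers, 17 were higher and 1 lower, with a median of 0.76. Aqp2, the vasopressin-regulated water channel gene, was chosen after its values were seen and stood at 563, 526 and 551 CPM in Het and 1136, 1196 and 1205 CPM in Hom (log2 1.11 ± 0.02). The keratin gene Krt18 (log2 1.51 ± 0.04), the sodium channel gene Scnn1a (log2 0.89 ± 0.03) and the water channel genes Aqp4 (log2 0.87 ± 0.03) and Aqp3 (log2 0.74 ± 0.03) rose. All 10 tested urothelial and papillary markers were higher, with a median of 1.27, among them Psca (log2 1.62 ± 0.03), Krt5 (log2 1.47 ± 0.07) and Krt19 (log2 1.30 ± 0.05). The thick ascending limb and distal list had 8 higher and 9 lower of 19 (11 and 7 with library totals as the only scaling), with a median of -0.04 that turned to 0.11 under that scaling. Kl, which encodes the FGF23 co-receptor klotho, fell by 1.23 ± 0.02 (log2) in it.

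Endothelial and most podocyte markers were higher in Hom. Of 20 endothelial markers tested, 19 were higher and 0 lower, with a median of 0.72, among them Plvap (log2 0.84 ± 0.02), Ptprb (log2 0.92 ± 0.03), Flt1 (log2 0.88 ± 0.03) and Tie1 (log2 0.76 ± 0.03). Of 27 podocyte markers tested, 18 were higher and 5 lower, with a median of 0.40. Podxl, the gene of the podocyte surface sialomucin, stood at 145, 142 and 146 CPM in Het and 259.9, 255 and 262 in Hom (log2 0.84 ± 0.03). The actin-binding protein gene Synpo rose by 1.07 ± 0.04 (log2). Nphs1 (log2 0.73 ± 0.11) and the transcription factor gene Wt1 (log2 1.12 ± 0.16), chosen after their values were seen, were higher too. The glomerular basement membrane collagens Col4a3 and Col4a4 fell by 0.89 ± 0.03 (log2) and 0.63 ± 0.02 (log2). Immune cell markers showed 5 higher and 7 lower of 23 tested (9 and 4 with library totals alone), with a median of -0.05 that turned to 0.10 under that scaling and to 0.01 with a minimum mean of 5 CPM. The macrophage receptor gene Csf1r fell by 1.08 ± 0.04 (log2), while the lysozyme genes Lyz1 and Lyz2 rose by 1.32 ± 0.14 (log2) and 0.37 ± 0.03 (log2).

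In shares of all counts, the collecting duct list took 0.156% to 0.159% in Het and 0.297% to 0.323% in Hom, and the urothelial list 0.0283% to 0.0285% and 0.0653% to 0.0706%. The endothelial list took 0.136% in each Het library and 0.222% to 0.241% in Hom, and the podocyte list 0.231% to 0.234% and 0.265% to 0.286%. On the TMM scale the podocyte sums lay closer together, at 2428 to 2456 CPM in Het and 2649 to 2656 CPM in Hom. Total_Hom replicate 2, rich in Rn45s, held the lowest Hom share of each list named here. Immune cell markers took 0.231% to 0.232% in Het, 0.230% in Total_Hom replicate 2 and 0.248% to 0.249% in the other Hom libraries. On the TMM scale their sum was lower in Hom, at 2300 to 2305 CPM against 2435 to 2452 CPM in Het, so its direction depends on the scaling. These marker sums moved with the tubule results above, and their part in them was not tested. Mesangial, stromal and smooth muscle markers had 7 higher and 7 lower of 19 (10 and 5 with library totals alone), and 2 of 2 tested erythroid markers, with 5 others at 0 in all 6 libraries, were higher, Alas2 by 0.40 ± 0.03 (log2) and Slc4a1 by 0.26 ± 0.04 (log2). The brown fat gene Ucp1, chosen after its values were seen, held 146 counts over the 3 Het libraries and 1 over the 3 Hom libraries, and 6 of 9 tested adipocyte markers were lower in Hom and 2 higher (5 and 3 with library totals alone), with a median of -0.55. The adipocyte list took 0.135% to 0.137% of counts in Het and 0.117% to 0.126% in Hom. Of 10 adrenal markers 2 were at 0 in all 6 libraries and 2 of 2 tested were higher (log2 1.99 ± 0.24 for Hsd3b1 and log2 0.44 ± 0.14 for Star), and the call of Star was lost without Total_Het replicate 3 (0.32) or without Total_Hom replicate 1 (0.28).

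**Figure D2:**
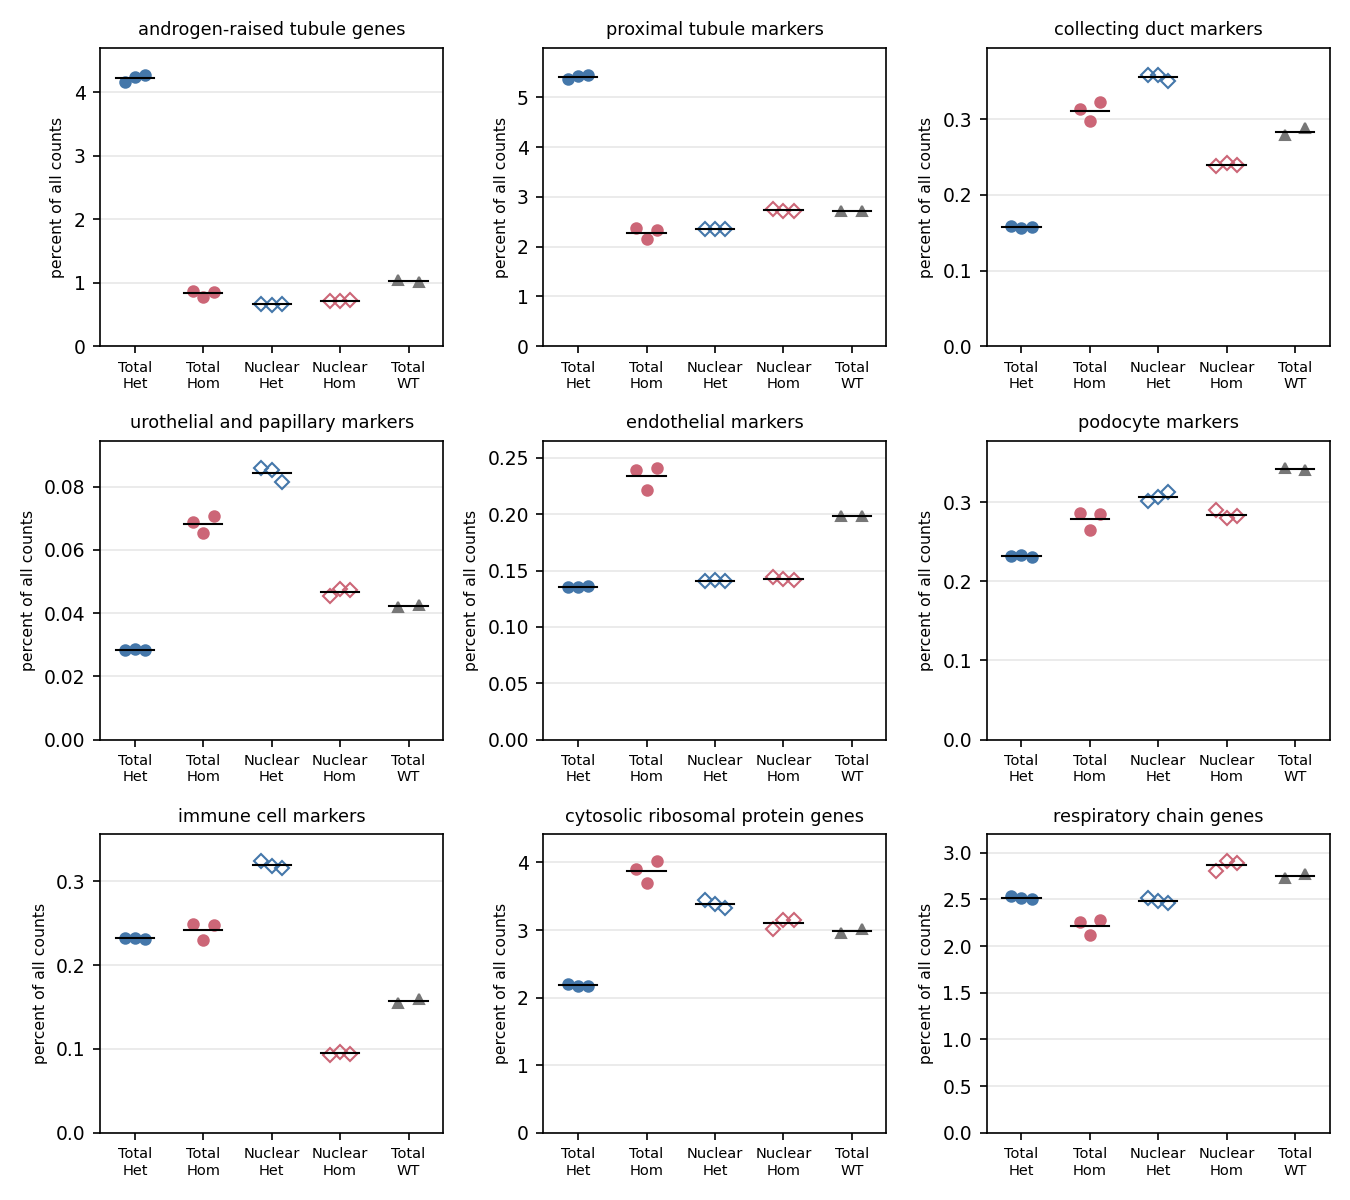
Share of all counts, in percent, taken by 9 gene lists in each library; filled circles are Total_Het and Total_Hom, open diamonds Nuclear_Het and Nuclear_Hom, triangles the 2 Total_WT libraries used, and bars the group means. The androgen-raised sum is 4.16% to 4.27% in Total_Het and 0.777% to 0.870% in Total_Hom, while the collecting duct, urothelial and endothelial sums are higher in Total_Hom.

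Genes of mitochondrial metabolism were mostly lower in Hom. Of 72 respiratory chain genes tested, 58 were lower and 8 higher (39 and 14 with library totals alone), with a median of -0.28. The ATP synthase subunit gene Atp5b stood at 3835, 3802 and 3773 CPM in Het and 2489.9, 2489 and 2504 CPM in Hom (log2 -0.61 ± 0.01), the complex I gene Ndufs1 fell by 0.95 ± 0.02 (log2), the cytochrome c gene Cycs by 1.09 ± 0.03 (log2) and the complex II gene Sdha by 0.57 ± 0.02 (log2). Of 35 genes of fatty acid oxidation and ketogenesis, 24 were lower and 9 higher. The medium-chain dehydrogenase gene Acadm fell by 1.35 ± 0.01 (log2) and the peroxisomal carnitine transferase gene Crot by 1.83 ± 0.02 (log2), whereas Cyp4a14 and Cyp4a10 rose.

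Genes on the lists of glucose and of sterol metabolism were mostly lower too. Of 28 gluconeogenic, glycolytic and fructose genes, 21 were lower and 6 higher (16 and 9 with library totals alone), with a median of -0.37. Fbp1, the gene of fructose-1,6-bisphosphatase, fell by 0.79 ± 0.02 (log2), the D-lactate dehydrogenase gene Ldhd by 1.72 ± 0.01 (log2) and the glucose transporter gene Slc5a2 by 1.18 ± 0.03 (log2). Pck1, the gene of cytosolic phosphoenolpyruvate carboxykinase, was chosen after its values were seen and was higher (log2 0.24 ± 0.01). Of 31 genes on the sterol synthesis and uptake list, which also holds lipogenesis genes, 18 were lower and 6 higher (14 and 10 with library totals alone). The median was -0.23. The isomerase gene Idi1 (log2 -2.74 ± 0.06), the demethylase gene Cyp51 (log2 -1.87 ± 0.03) and Fasn (log2 -1.26 ± 0.03), the gene of fatty acid synthase, fell, whereas the desaturase gene Scd2 rose (log2 1.24 ± 0.03). Srebf1, the gene of the lipogenic transcription factor SREBP-1, was chosen after its values were seen and rose (log2 0.85 ± 0.04).

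Ribosomal protein genes rose almost throughout. Of 77 cytosolic ribosomal protein genes tested, 76 were higher in Hom and 0 lower, with a median of 0.68. Rps3 stood at 626, 623 and 629 CPM in Het and 1077, 1087 and 1107 CPM in Hom (log2 0.80 ± 0.02). Rps14 (log2 1.05 ± 0.02), Rpl13a (log2 0.88 ± 0.02) and the elongation factor gene Eef1a1 (log2 0.63 ± 0.01) were among the most abundant genes that rose. The ribosomal protein list summed to 2.17% to 2.21% of counts in Het and 3.70% to 4.02% in Hom. Many ribosomal protein genes have near-identical pseudogenes, so how reads were counted can shift single values. Of 18 long noncoding RNAs and snoRNA hosts tested, 10 were higher and 2 lower, and the snoRNA host genes Snhg8 (log2 1.21 ± 0.07) and Gas5 (log2 0.68 ± 0.06) rose.

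Nuclear pore and transport genes differed by little. Of 12 inner-ring and channel nucleoporins tested, 0 were higher and 3 lower, with a median of -0.09. With library totals as the only scaling 3 were higher and 2 lower, and the median turned to 0.06. The 3 were Nup35 (log2 -0.51 ± 0.11), Nup54 (log2 -0.31 ± 0.07) and Nup62 (log2 -0.19 ± 0.07), and the call of Nup62 was lost under that scaling. Of 19 outer pore nucleoporins, 8 were lower and 2 higher (2 and 6 with library totals alone), with a median of -0.08 that turned to 0.07, and Nup50 fell most among those named (log2 -0.61 ± 0.04). These shares of calls were below the 68.0% over all genes. Of 29 transport receptors and Ran cycle genes, 22 were lower and 3 higher, with a median of -0.26. Under that scaling 12 were lower and 6 higher and the median was -0.11. Ran, the GTPase that gives transport its direction, stood at 143, 145 and 147 CPM in Het and 105, 104 and 108 CPM in Hom (log2 -0.46 ± 0.03). The import receptor gene Tnpo1 (log2 -0.54 ± 0.03), the importin alpha gene Kpna6 (log2 -0.56 ± 0.03) and the GTPase activator gene Rangap1 (log2 -0.54 ± 0.04) fell too. Of 23 mRNA export factors, 7 were higher and 7 lower (9 and 2 with library totals alone), with a median of -0.03 that turned to 0.12 under that scaling; the export receptor gene Nxf1 rose (log2 0.36 ± 0.04) and Thoc7 fell (log2 -0.42 ± 0.03).

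Chaperone genes were mostly lower. Of 22 heat shock genes, 14 were lower and 5 higher, with a median of -0.35. The mitochondrial chaperonin gene Hspd1 stood at 758, 774 and 766 CPM in Het and 306, 301 and 299 CPM in Hom (log2 -1.34 ± 0.02). The cytosolic chaperone genes Hsp90aa1 (log2 -0.72 ± 0.02), Hsp90ab1 (log2 -0.55 ± 0.01) and Dnaja1 (log2 -0.93 ± 0.03) fell, while the stress-inducible Hspa1a (log2 0.62 ± 0.07) and Hspa1b (log2 0.81 ± 0.04), chosen after their values were seen, rose. Of 34 genes of the unfolded protein and integrated stress response, 16 were lower and 8 higher (9 and 13 with library totals alone), with a median of -0.07 that turned to 0.07 under that scaling, and the endoplasmic reticulum chaperone gene Calr fell by 0.71 ± 0.02 (log2). Of 31 proteasome subunit genes, 22 were lower and 1 higher, with a median of -0.25. Under that scaling 15 were lower and 6 higher and the median was -0.10. Glutathione, NRF2 and metallothionein genes were split, with 13 higher and 13 lower of 29 (15 and 10 with library totals alone): the glutathione transferase gene Gsta2 rose by 1.97 ± 0.03 (log2) and the transpeptidase gene Ggt1 fell by 1.52 ± 0.02 (log2).

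Injury, immediate early and BMP genes were mostly higher, whereas steroid receptors and related genes were split. Of 26 tubular injury and repair genes tested, 20 were higher and 3 lower, with a median of 0.75. S100a6 (log2 1.56 ± 0.03), the ceruloplasmin gene Cp (log2 1.40 ± 0.03) and the osteopontin gene Spp1 (log2 0.79 ± 0.01) rose with Lcn2. Havcr1, the gene of the injury marker KIM-1, was chosen after its values were seen and went the other way, from 54.3, 56.4 and 57.5 CPM in Het to 12.5, 13.5 and 14.6 CPM in Hom (log2 -2.05 ± 0.06). Of 25 immediate early genes, 20 were higher and 1 lower, with a median of 0.69, among them Klf4 (log2 1.39 ± 0.06), Ctgf (log2 0.90 ± 0.03), Klf6 (log2 0.77 ± 0.03) and Dusp1 (log2 0.66 ± 0.03). Of 31 BMP and SMAD genes, 21 were higher and 4 lower (25 and 1 with library totals alone). The BMP target genes Id1 (log2 1.52 ± 0.06) and Id3 (log2 1.19 ± 0.04) and the inhibitory SMAD gene Smad6 (log2 0.94 ± 0.08) rose, and the BMP antagonist gene Chrdl1 fell (log2 -1.38 ± 0.08). A list of steroid receptors and related genes had 10 higher and 8 lower of 23 (12 and 5 with library totals alone). In it Socs2, a growth hormone and STAT5 target, rose by 1.65 ± 0.05 (log2) while the growth hormone receptor gene Ghr fell by 0.89 ± 0.02 (log2). The glucocorticoid target Tsc22d3, chosen after its values were seen, rose by 1.06 ± 0.03 (log2).

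Immune effector genes moved both ways. Of 24 complement genes tested, 13 were higher and 5 lower, with a median of 0.45: C3 (log2 1.40 ± 0.03) and the C1 inhibitor gene Serping1 (log2 0.89 ± 0.03) rose while Cfb (log2 -0.61 ± 0.02) and C8a (log2 -1.72 ± 0.06) fell. Of 34 interferon-induced genes 13 were higher and 5 lower (22 and 4 with library totals alone), with a median of 0.14. MHC class II genes had 5 higher and 5 lower of 12 (7 and 2 with library totals alone). Of 26 p53 targets, 11 were higher and 10 lower (13 and 1 with library totals alone), with a median of -0.03 that turned to 0.12 under that scaling and to 0.06 with a minimum mean of 5 CPM, and the cell cycle inhibitor gene Cdkn1a rose by 0.84 ± 0.05 (log2). Extracellular matrix genes had 16 higher and 14 lower of 34, with the metalloprotease inhibitor gene Timp3 lower (log2 -0.78 ± 0.01) and the laminin gene Lama5 higher (log2 0.78 ± 0.03). Splicing factors had 17 higher and 13 lower of 44, a called share close to that of all genes, and 29 higher and 3 lower with library totals alone. Srsf5 rose by 0.84 ± 0.03 (log2).

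**Figure D3:**
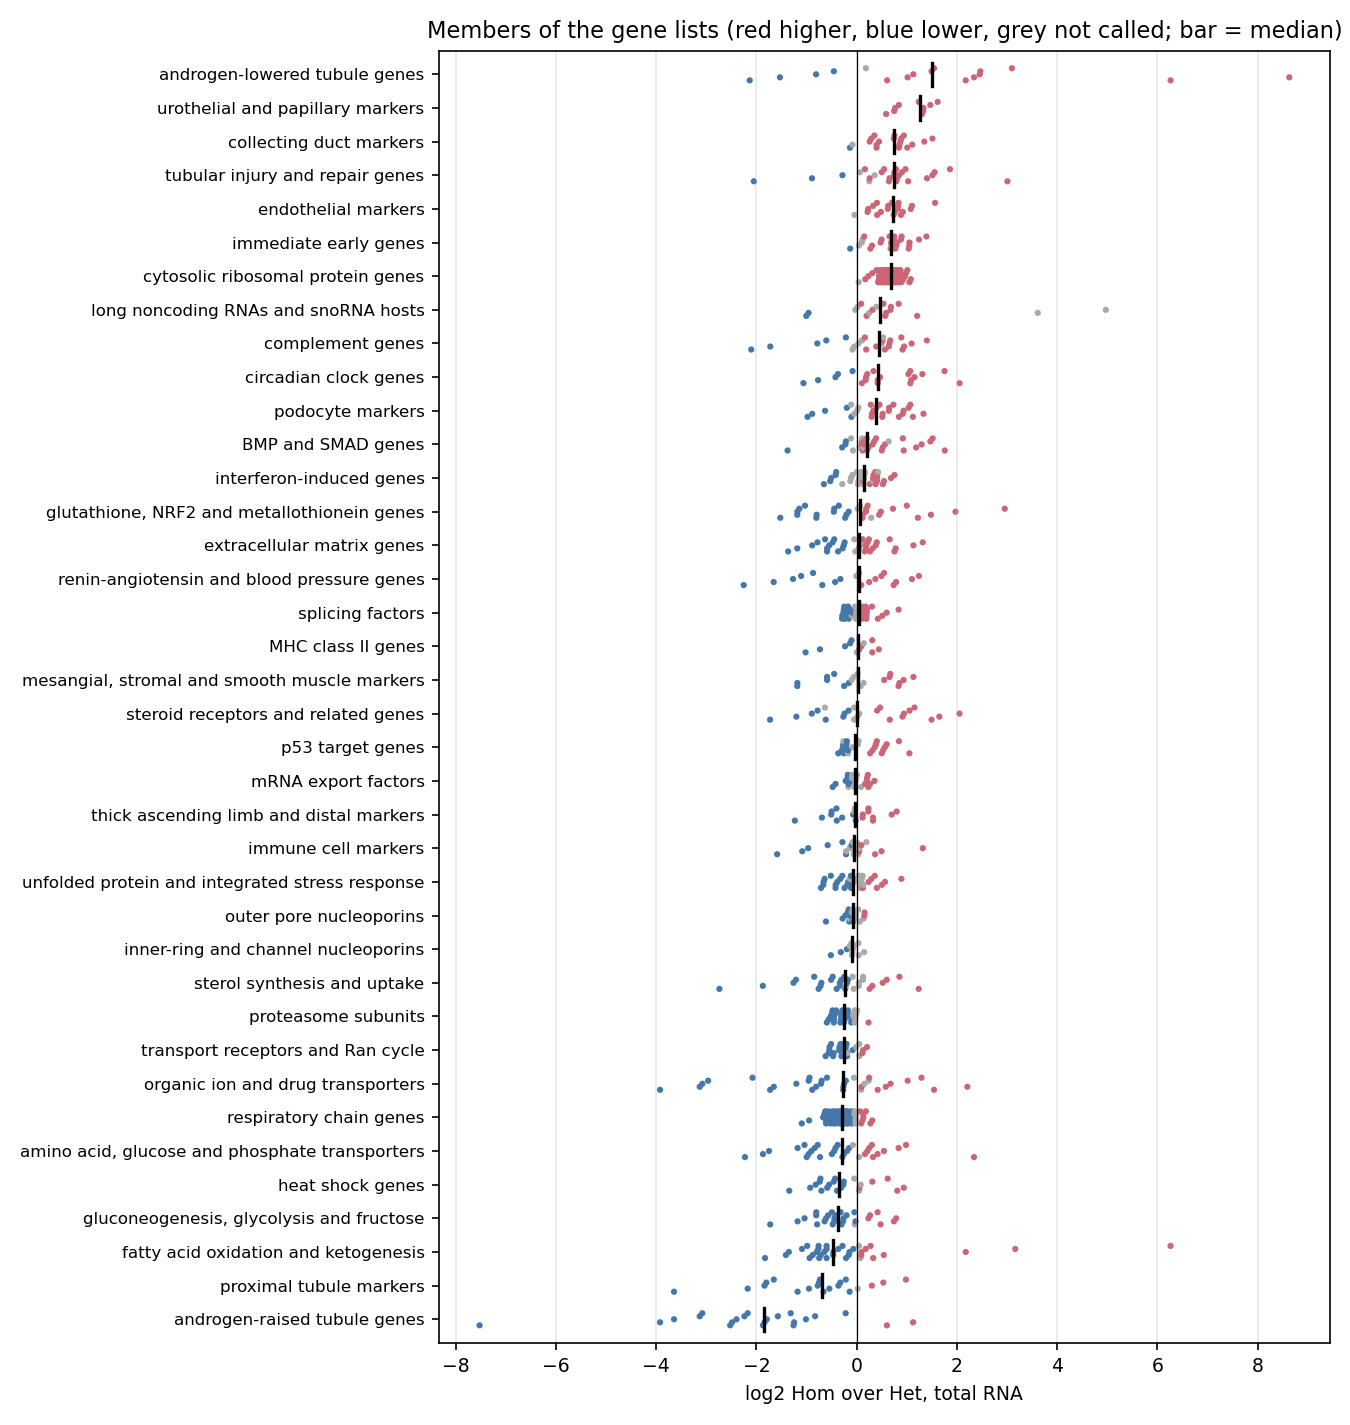
Log2 Hom over Het in total RNA of each tested member of the gene lists with at least 10 tested members, ordered by the list's median (black bar); red points were called higher, blue lower and grey neither. Androgen-raised tubule genes have the lowest median (-1.85) and androgen-lowered genes the highest (1.495), and the 77 ribosomal protein genes lie close together around 0.68.

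Genes next to Nup93, the edited gene, were examined as a set chosen after the data were seen. They were the 50 tested genes nearest to Nup93 in the RefSeq gene order of GRCm38, 25 on each side. Of the 50 genes 36 (72%) were called, 21 higher and 15 lower, against a called share of 68.0% over all genes. The median size of a difference was 0.21 against 0.29 over all genes. Of the 50 genes 5 differed by at least 2-fold, among them the carboxylesterase gene Ces1f, at 777, 766 and 764 CPM in Het and 143, 137 and 133 CPM in Hom (log2 -2.49 ± 0.02). In nuclear RNA Ces1f was not called (log2 -0.006, adjusted p 0.93 in edgeR's quasi-likelihood test).

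The same genotypes were compared in nuclear RNA, in other libraries. There 15001 genes were tested and 6369 (42.5%) called, 3084 (20.6%) higher and 3285 (21.9%) lower in Hom. With library totals as the only scaling the nuclear split was 2193 higher and 4396 lower. Of 14545 genes tested in both fractions, 4678 were called in both, 1352 in the same direction and 3326 in opposite directions. The 1352 were 13.7% of the total calls and 21.9% of the nuclear calls. Of the 200 genes called with at least 2-fold in both, 52 went the same way and 148 the opposite way. Across genes, which are not independent replicates, Spearman's rho was -0.26 and Pearson's r -0.19. The nuclear libraries of both genotypes held Xist at 504 ± 26.1 (Het) and 490.2 ± 11.2 (Hom) CPM (SD, n = 3), unlike the total ones. Xist and the 4 Y-linked genes together summed to 506 CPM in Nuclear_Het and 491 CPM in Nuclear_Hom, so nearly all of it was Xist. In Total_Het and Total_Hom, where Xist was near absent, the same sum was 152 and 158 CPM. RNA fraction therefore cannot be told apart here from Xist and Y-linked status.

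Several lists had opposed counts in the 2 fractions. In nuclear RNA respiratory chain genes were 72 higher and 0 lower, and proximal tubule markers 17 higher and 1 lower. Collecting duct markers were 4 higher and 11 lower, podocyte markers 3 higher and 10 lower and urothelial markers 0 higher and 10 lower. Ribosomal protein genes were 2 higher and 42 lower. Injury and repair genes were 0 higher and 22 lower, and Lcn2 fell by 3.75 ± 0.06 (log2) in nuclear RNA while it rose by 3.01 ± 0.06 (log2) in total RNA. Slco1a1 was lower in both, with log2 Hom over Het of -4.55 ± 0.19 in nuclear RNA. Cyp4a14 (log2 0.84 ± 0.03) and Ugt1a2 (log2 0.38 ± 0.03) were higher there too, by less, as the interaction test found for each. The difference between the fractions, fitted as an interaction over 12 libraries, was called for 9737 of 15271 genes (63.8%).

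**Figure D4:**
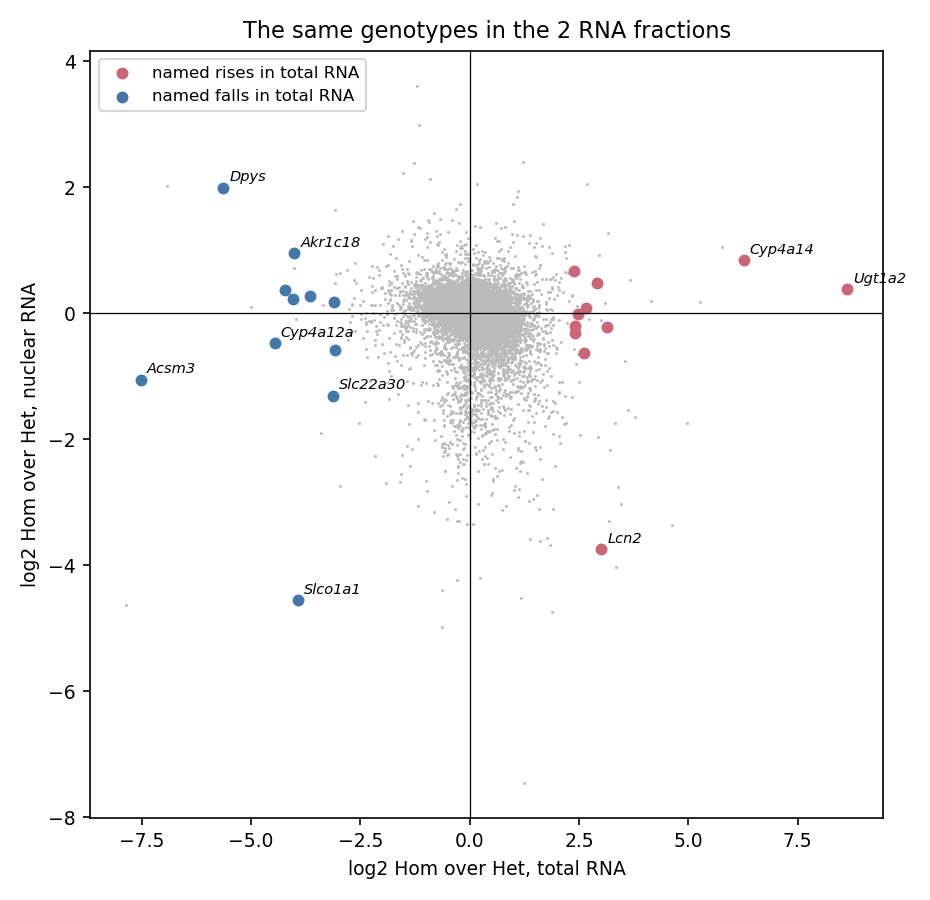
Log2 Hom over Het in total RNA (x axis) against nuclear RNA (y axis) for each gene tested in both; grey points are all genes, red and blue points the 11 rises and 11 falls named in total RNA. Slco1a1 is low on both axes, Lcn2 is high in total and low in nuclear RNA, and Dpys is low in total and high in nuclear RNA. Of the 22 named genes 20 were called in nuclear RNA, 10 in each direction relative to total RNA.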

How the data were processed

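The authors deposited 1 table of raw counts per gene symbol for 18 libraries. CASAVA, STAR 2.5.2b, featureCounts, DESeq2 and the mouse build mm9 are named per the submitters' processing notes, with no settings. A stranded mRNA kit was used per the labels' protocols, and the strand setting of the counting is not given in the sources used here.

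Counts of the 6 Total_Het and Total_Hom libraries were filtered with filterByExpr, scaled by TMM and tested by robust glmQLFit and glmQLFTest of edgeR 4.0.16 (R 4.3.3), with Benjamini-Hochberg adjusted p under 0.05 as the threshold. The biological coefficient of variation was 4.42%. The median squared difference between replicate pairs, scaled by sampling noise, was 1.27 to 1.52 times its value under sampling noise alone. The nuclear Hom and Het libraries had their own fit and the difference between fractions a fit of 12 libraries. Total_WT replicate 1, whose column sums to 200140709, was not used here. The fit was also run on simulated data, but the outcome is not given here and no result rests on it.

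CPM is on TMM-scaled totals. Named were Nup93, Rn45s, Xist and 4 Y-linked genes, the 12 largest rises and the 12 largest falls (called, averaging 5 CPM or more, no overlap between the groups), the 5 most abundant called genes changed by at least 1.5-fold each way, and up to 4 members per list by p, predicted models excluded. Other genes were chosen after their values were seen, which the text says. Some genes that met these rules are not reported here. The genes, lists and libraries were chosen with earlier results of these data known. Alternatives were DESeq2 1.42.0, other scalings and filters, removal of Rn45s, a replicate block, leaving out each library and fits with more libraries.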

Additional observations from a re-analysis of the deposited data

Results flagged for a closer look

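The difference between Hom and Het was itself compared between total and nuclear RNA, by the interaction term of edgeR's quasi-likelihood fit over 12 libraries. The interaction was called for each of the 22 genes named for the largest changes and for Nup93. Over all genes it was called for 9737 of 15271 (63.8%). The 22 genes were chosen for their large log2 values in total RNA, and those values enter the interaction. That all 22 were called is therefore not a separate result. Values are log2 Hom over Het in total RNA minus the same in nuclear RNA. RNA fraction cannot be told apart from Xist and Y-linked status in this difference. The total libraries of both genotypes held Y-linked transcripts and little Xist, and the nuclear ones held much Xist and little Y-linked RNA. Among the rises in total RNA, the largest values were Ugt1a2 at 8.23, Lcn2 at 6.74 and Cyp4a14 at 5.41. They were followed by Apod at 3.34, Aldh1a3 at 3.23, Msln at 2.70, Apoe at 2.59, Gc at 2.57, Kynu at 2.46, Kcnip2 at 2.42 and Lrtm2 at 1.71.

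Among the falls, Dpys stood at -7.64, Acsm3 at -6.48, Akr1c18 at -4.97, Inmt at -4.60, Slc51a at -4.27, Cyp4a12a at -4.00 and Kap at -3.93. Angptl7 stood at -3.29, Slc22a28 at -2.51 and Slc22a30 at -1.83. Slco1a1 was the exception in sign, at 0.61 with an adjusted p of 0.0264, since it fell in both fractions and further in nuclear RNA. Nup93 stood at 0.30 with an adjusted p of 0.00556. Of the 22 genes, 10 were called in nuclear RNA in the same direction as in total RNA, 10 in the opposite direction and 2 were not called there.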

How the results depend on the processing

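The counts of called genes stayed within 1.5 times the reported ones under every alternative run, except 2 with library totals as the only scaling: genes lower in total RNA (3065 in place of 5055) and genes lower in the difference between fractions (2877, beside 7103 higher). DESeq2 called 8835 genes in total RNA, and leaving out each library in turn called 9514 to 9723. Total_Hom replicate 2 did not end the call of any gene named here but Xist (0.77). Xist also lost its call without Total_Het replicate 1 (0.74), without Total_Het replicate 2 (0.75) and in the fit of 12 libraries (1.04), where Rn45s passed (3.78). The replicate block called 9960 genes in total RNA, 6260 in nuclear RNA and 9703 in the difference. Same-numbered libraries correlated at -0.07, -0.07 and 0.02 in their deviations, so the numbers were not taken as pairs.

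Of 200 named genes 189 kept their direction and side of the threshold under all alternatives. With library totals alone, H2-Ab1 turned from -0.10 to 0.0461, while Kdm5d (-0.16), Uty (-0.10), Nup62 (-0.05), Tpr (-0.01) and Rae1 (-0.08) lost their calls. Rpph1 ranged from -0.35 (without Total_Hom replicate 2) to 4.17 (without Total_Hom replicate 3) when a library was left out. Nup93 passed with library totals alone (0.30), with a minimum mean of 5 CPM (0.18) and without Total_Hom replicate 3 (0.17). The causes were not tested. Depth limits the genes of lowest counts, such as Xist with 31 counts over the 3 Het libraries.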
